A study of Mus musculus with 30 samples.

Results

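CT-26 and Colon 26 are cell lines from carcinogen-induced colon tumors of BALB/c mice, grown either in dishes or as tumors under the skin. The comparison described here asks which genes differed between the lines in one direction in culture and in the other direction in small tumors. It used 14 of the 30 RNA-seq libraries of the study in 4 groups: 3 cultures of CT-26, 3 cultures of Colon 26, 4 CT-26 tumors and 4 Colon 26 tumors of the size class labelled 100 mm3. The hosts were female BALB/c mice, implanted under the right flank, and their age is not in the labels. A further 16 tumors, 4 of each model at 400 mm3 and 4 at 800 mm3, were kept for checking the direction in tumors. The direction in cultures had no such check. The tumors were taken as untreated, since no label names an antibody for a sample although the treatment text describes dosing.

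For each gene 3 quantities were set side by side, all as log2 fold changes: Colon 26 over CT-26 in cultures, Colon 26 over CT-26 in tumors of 100 mm3, and the interaction, which is the second minus the first. A positive interaction is written as a shift towards Colon 26 and a negative one as a shift towards CT-26. Calling a gene took a log2 value of 1 or more in either direction together with an adjusted p no higher than 0.1. A gene called in all 3 quantities, with opposite signs in cultures and tumors, is named a crossing gene here. There were 108 crossing genes among 16501 genes tested, of which 60 crossed towards Colon 26 and 48 towards CT-26.

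A culture is grown from the cell line alone, while a tumor also holds the host's immune cells, fibroblasts and vessels. A bulk library of a tumor thus sums the RNA of all of them. Low counts of macrophage markers were also present in cultures, such as C1qa at means of 0.492 (CT-26) and 0.0263 CPM (Colon 26). Their source was not tested. Interferons secreted in a tumor switch on a shared set of antiviral and antigen-presenting genes in tumor and host cells alike. Stromal cells and mesenchyme-like tumor cells lay down matrix proteins such as periostin and tenascins, which change when cells leave plastic for tissue. In these bulk samples fewer cells of a type and less RNA per cell cannot be told apart, and the source of a transcript in a tumor was not measured.

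Levels are given as CPM, the counts of a gene divided by its library's normalized total and put on one common scale, without regard to gene length, so they are compared between libraries and not between genes. Library totals ranged from 21384730 to 39722586 counts, and those of the Colon 26 cultures (36042940 to 39722586) were above those of the CT-26 cultures (21384730 to 27856380). The library numbers in the labels place the cultures of both lines in separate series, so in the cultures the model and the series cannot be told apart. The methods name a single source for CT-26 and a pair of sources for Colon 26, without saying which stock gave which library. Nothing says that the 3 cultures of a line were independent, so the spread between them may be technical. A single estimate of spread per gene served all groups, and tumor replicates differed more than culture replicates. The p-values and standard errors in cultures thus also carry the spread of tumors, and those in tumors that of cultures. Epcam and Cdh1, which mark epithelium, were at 0 and at no more than 0.0505 CPM, respectively, in all 6 cultures. The colon factor Cdx2 was at 5.98 to 6.45 CPM in Colon 26 cultures and at no more than 0.251 CPM in CT-26 cultures, and the keratin gene Krt18 at 15.9 to 16.1 CPM in CT-26 cultures and at no more than 0.0767 CPM in Colon 26 cultures. Vim, which encodes the mesenchymal filament protein vimentin, was at 2163 to 2971 CPM in all cultures.

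The model difference depended on the tissue for many genes. The interaction was called for 2904 genes (17.6%), 1368 towards Colon 26 (8.29%) and 1536 towards CT-26 (9.31%). Colon 26 and CT-26 differed in 3654 genes in cultures (22.1%), of which 1675 were higher in Colon 26 (10.2%) and 1979 higher in CT-26 (12%). In tumors they differed in 2423 genes (14.7%), 1145 higher in Colon 26 (6.94%) and 1278 higher in CT-26 (7.74%). Of the genes called in the interaction, 1396 were called in cultures only, 397 in tumors only, 478 in both with the same sign, 108 in both with opposite signs, and 525 in neither. The estimates had opposite signs in 1650 of the 2904 genes (56.8%), beside 5659 of the 16501 genes tested. These counts ask for no call in either tissue, and a called interaction makes opposite signs more likely. Of the 1394 genes called in both tissues, 1286 kept the sign of the model difference and the 108 crossing genes, 0.655% of the genes tested, did not.

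**Figure D1:**
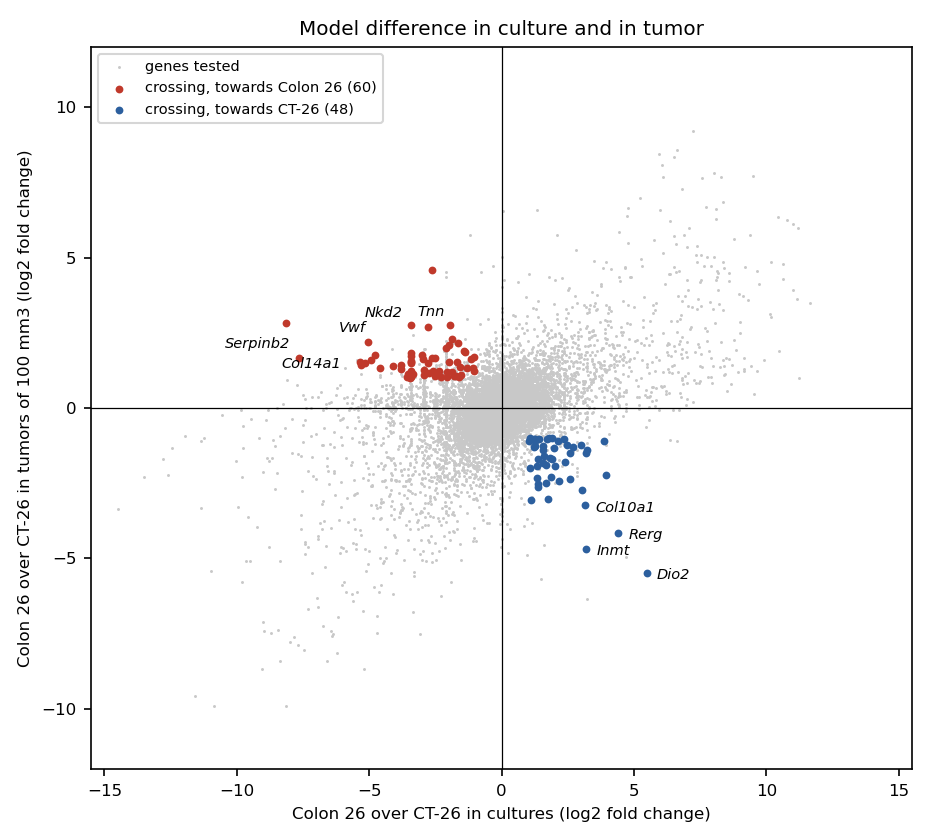
Each point is a gene, placed by its log2 fold change of Colon 26 over CT-26 in cultures (horizontal axis) and in tumors of 100 mm3 (vertical axis), with crossing genes in color and 1 of the 16501 genes outside the axes. The 60 red genes lie at the upper left and the 48 blue genes at the lower right, while most genes far from the center lie along the rising diagonal.

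The signs and calls that define crossing genes were read from these 14 libraries, so their values in cultures and in tumors of 100 mm3 are a description without a test, and their interaction has an absolute value of at least 2 by construction. The median interaction was 4.27 for the genes crossing towards Colon 26 and -3.62 for those crossing towards CT-26, beside -0.02 over all genes. Genes with at most 3 counts per library in a culture group are included. Their values depend on the model's prior count, so the sizes of these medians are not compared. In 73 of the 108 genes the libraries of both models did not overlap in cultures nor in tumors. The calls that chose these genes make such separation likely, so nothing is read from this count. The genes nearest inside the fold threshold were Dlk2, Pde1b and Sept4, whose smaller absolute log2 fold changes were 1.003, 1.007 and 1.011, and those nearest outside were 2810433D01Rik, Cacna1c and Cdh26 at 0.996, 0.985 and 0.983.

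The 2 directions differed in how much RNA the cultures held. A group was taken to be at the floor when no library held more than 3 counts of the gene. Among the genes crossing towards CT-26, neither culture group was at the floor in 40 of 48 genes and 1 was in 8. Among those crossing towards Colon 26, neither was at the floor in 26 of 60, 1 was in 17, and both were in another 17. For these 17 genes, which include Adamts2, Meg3, Nkd2, Robo1, Epha4, Ncam1, Serpina3n and Hoxc9, the sign in culture rests on at most 3 counts per library and no fold change is given. Atp13a4 is the reverse case, with at most 1 count in any tumor, and its sign in tumors rests on those counts.

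Genes that respond to interferon were among those higher in Colon 26 cultures and higher in CT-26 tumors. Cmpk2 encodes a mitochondrial nucleotide kinase induced by interferon. It was at 0.845, 0.918 and 1.17 CPM in CT-26 cultures and at 4.59, 4.39 and 4.27 CPM in Colon 26 cultures. In tumors it was at 51.0, 86.6, 32.6 and 38.4 CPM in CT-26 and at 6.17, 13.0, 11.2 and 8.07 CPM in Colon 26. The models were apart in both tissues, in opposite directions, with log2 fold changes of 2.17 ± 0.44 (SE) in cultures and -2.44 ± 0.29 in tumors, and an interaction of -4.60 ± 0.51.

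Ifit1, whose product binds viral RNA, was at 4.88 to 6.36 CPM in CT-26 cultures and 13.9 to 15.8 CPM in Colon 26 cultures. In tumors it was at 58.1, 100, 40.6 and 45.1 CPM in CT-26 and at 7.53, 10.8, 12 and 8.86 CPM in Colon 26. Every CT-26 tumor was above every CT-26 culture, while the Colon 26 tumors were below the Colon 26 cultures, by a log2 fold change of -0.60 (adjusted p = 0.0555, edgeR) that was under the fold threshold. The interaction of Ifit1 was -4.03 ± 0.39.

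Rsad2, which encodes the antiviral enzyme viperin, was at 1.92, 2.06 and 2.51 CPM in CT-26 cultures and at 8.26, 8.41 and 7.41 CPM in Colon 26 cultures. In CT-26 tumors it was at 35.3, 54.8, 22.5 and 38.7 CPM, and in Colon 26 tumors at 8.21, 13.0, 13.6 and 11.7 CPM. The gap was thus about equal in size and opposite in sign, at 1.89 ± 0.29 in cultures and -1.70 ± 0.22 in tumors. Mx2, a dynamin-like antiviral GTPase that the annotation lists as a polymorphic pseudogene, moved from 1.88 ± 0.39 in cultures to -2.29 ± 0.28 in tumors.

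The other crossing genes of the interferon-stimulated list were Rtp4 and Dhx58. Rtp4, a chaperone of receptor transport that interferon induces, was at 3.78 to 4.22 CPM in CT-26 cultures, 9.82 to 10.1 CPM in Colon 26 cultures, 41.0 to 93.7 CPM in CT-26 tumors and 8.67 to 23.3 CPM in Colon 26 tumors. Dhx58, which encodes the RNA sensor LGP2, was at 27.4 to 61.1 CPM in CT-26 tumors and 9.38 to 24.8 CPM in Colon 26 tumors, after 3.12 to 4.36 and 7.90 to 9.34 CPM in the cultures. An exon of Dhx58 overlaps Dhx58os on the other strand and one of Rtp4 overlaps Gm45338 on its own strand, so reads of these pairs may not be told apart.

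**Figure D2:**
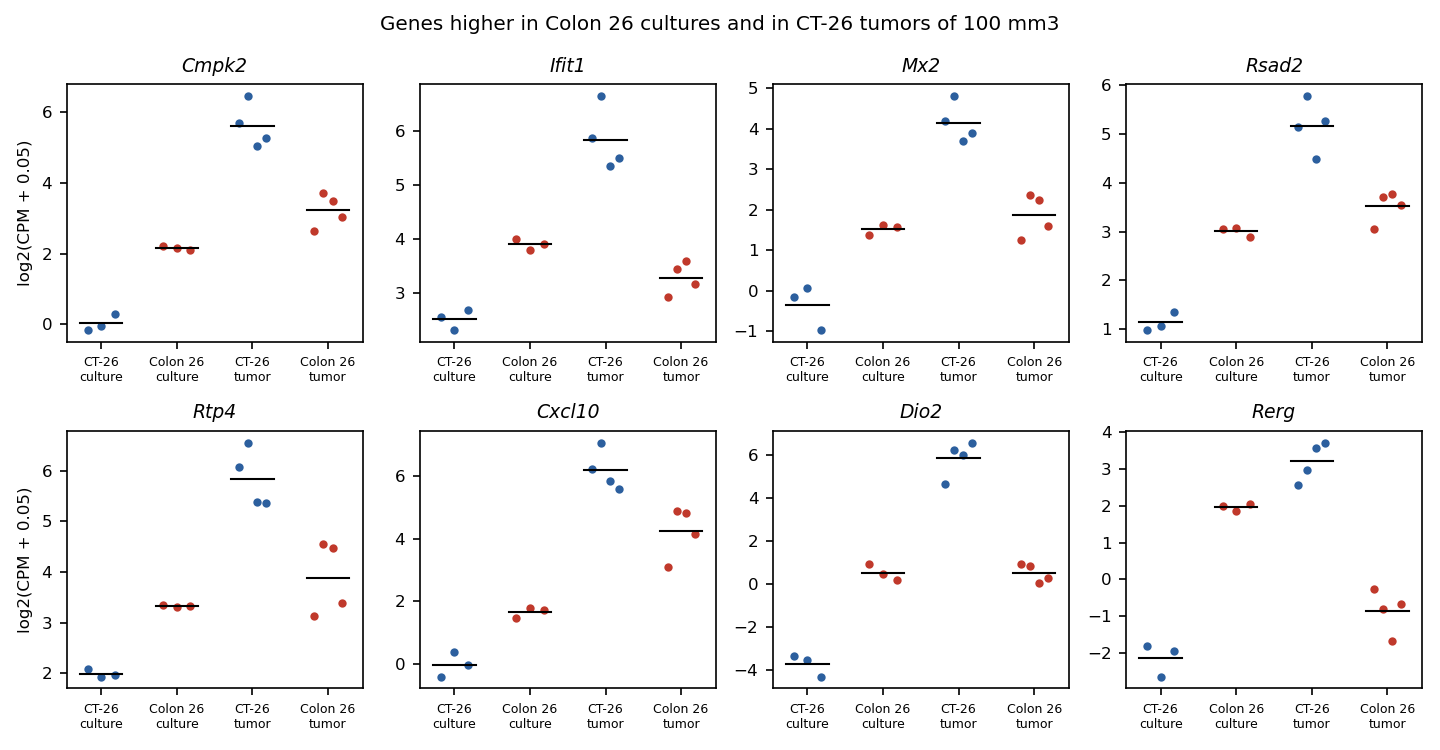
Each panel shows 1 gene as log2(CPM + 0.05) in the 3 cultures and 4 tumors of 100 mm3 of CT-26 (blue) and Colon 26 (red), with a line at each group's mean. In all 8 genes the Colon 26 cultures lie above the CT-26 cultures and the CT-26 tumors above the Colon 26 tumors.

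The whole interferon-stimulated list, 41 genes all of which were tested, shows where these genes sat. In cultures 6 members were called higher in Colon 26 and 5 higher in CT-26, beside 10.2% and 12% of all genes. In tumors of 100 mm3, 40 of 41 were called higher in CT-26 and 0 higher in Colon 26, beside 7.74% and 6.94% of all genes. The interaction was called towards CT-26 for 33 of 41 (80.5%, beside 9.31% of all genes) and towards Colon 26 for 0. Its estimate was below 0 for all 41, beside 8490 of the 16501 genes tested, and its median was -2.01. The list was written with earlier results of these data known.

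Members that did not cross reached the same side from other levels in culture. Oas2, which encodes an RNA-sensing synthetase, was already higher in CT-26 cultures (-2.68) and more so in tumors (-3.20), and its interaction of -0.52 ± 0.39 was not called (adjusted p = 0.313, edgeR). Gbp3, a guanylate-binding protein gene, was at means of 4.57 and 7.68 CPM in CT-26 and Colon 26 cultures and of 332 and 41.9 CPM in the tumors, with an interaction of -3.73 ± 0.97 (adjusted p = 0.00661).

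**Figure D3:**
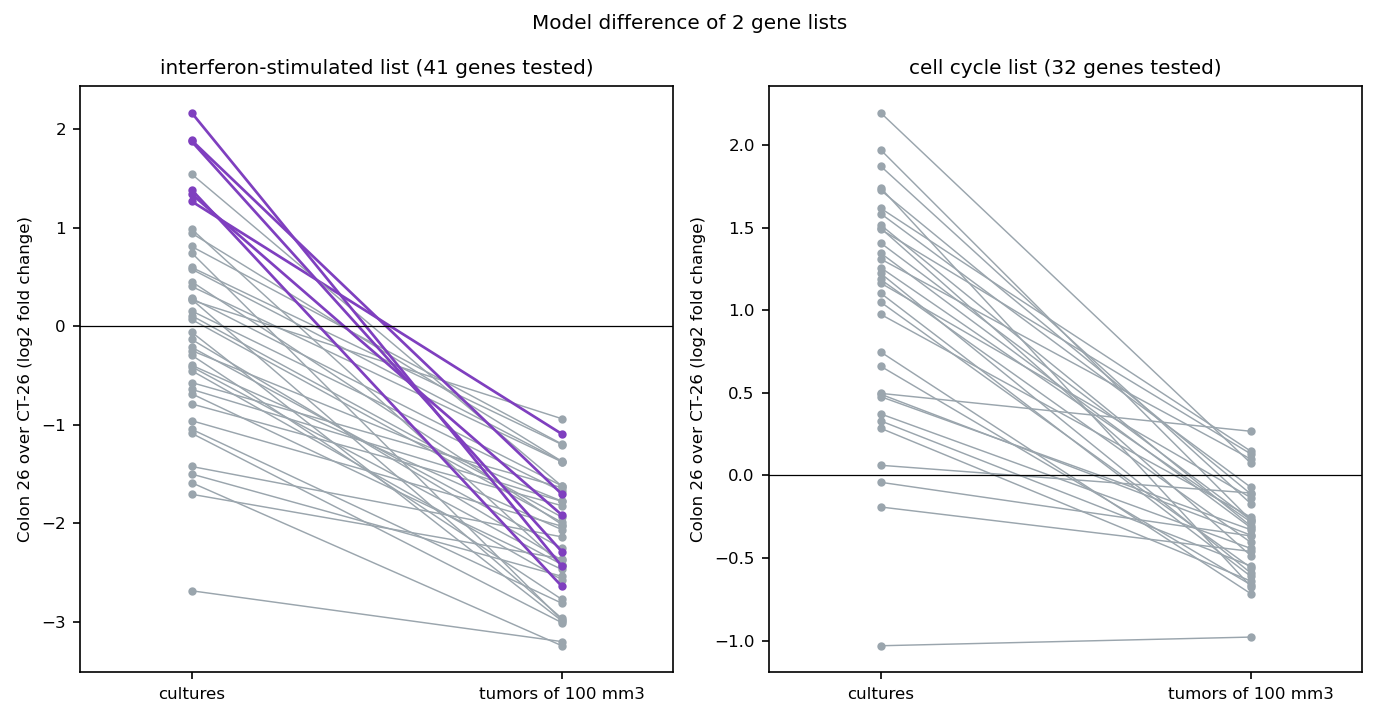
Each line joins a gene's log2 fold change of Colon 26 over CT-26 in cultures (left) to that in tumors of 100 mm3 (right), for the 41 interferon-stimulated genes and the 32 cell cycle genes, with crossing genes in purple. All interferon-stimulated genes end below 0 in tumors, and all lines but that of Ccnd2 in the cell cycle panel slope downwards.

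Markers of lymphocytes moved with the interferon list among the tumors. The summed CPM of the 9 markers of natural killer (NK) and cytotoxic cells was 204, 382, 68.9 and 62.8 in the 4 CT-26 tumors and 11.2, 55.4, 43.5 and 21.2 in the 4 Colon 26 tumors, and 0.230 to 1.05 in all cultures. The summed CPM of the interferon list in the same order was 6887, 12475, 4692 and 3763 in CT-26 tumors and 682, 2381, 2199 and 1018 in Colon 26 tumors, against 641 to 789 in the cultures. The 4 CT-26 tumors measured 103, 106, 136 and 146 mm3 in that order, and both sums were higher in the smaller pair than in the larger pair. The part of tumor volume was not tested. The second CT-26 tumor was the highest of its group in both sums. Without it, 34 of the 41 genes were called higher in CT-26 tumors and 27 were called in the interaction. The part of the NK cells in the interferon result was not tested.

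The promoters of the crossing genes were searched for a sequence that interferon-stimulated response elements contain; the matches are shown so that the letters behind the counts can be read. The motif was GAAANNGAAA, where N is any base, on either strand (TTTCNNTTTC when read on the other), in the 250 bases before the start in the RefSeq promoters of GRCm38.p6. It was present in 383 of 11456 tested genes with such a promoter (3.34%). It was present in 6 of the 30 genes crossing towards CT-26 that had one, in 2 of 40 crossing towards Colon 26 (5.0%), and in 18 of 30 of the interferon list (60.0%), part of which crosses. Of the 6 crossing genes of that list, 3 had such a promoter and 2 of these had a match. The 6 genes crossing towards CT-26 with a match were Akr1c14, Cxcl10, Cytip, Ifit1, Ifit3b and Rsad2. The match of Cytip borders a run of T, and those of Cytip and Akr1c14 are not printed, so the printed ones are only part of the matches. The matches of the other 4 are printed below with 25 bases on either side, the motif in capitals, 5′ to 3′ on the strand of the gene. They lie at chr5:92349068-92349127 (Cxcl10, minus strand), chr19:34640760-34640838 (Ifit1, plus), chr19:34607744-34607837 (Ifit3b, plus) and chr12:26456538-26456597 (Rsad2, minus).
Cxcl10: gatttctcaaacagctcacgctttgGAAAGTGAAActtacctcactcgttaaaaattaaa
Ifit1: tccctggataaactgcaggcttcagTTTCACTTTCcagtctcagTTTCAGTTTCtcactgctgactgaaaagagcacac
Ifit3b: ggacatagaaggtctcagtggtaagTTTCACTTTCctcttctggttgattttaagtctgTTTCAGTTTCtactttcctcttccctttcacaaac
Rsad2: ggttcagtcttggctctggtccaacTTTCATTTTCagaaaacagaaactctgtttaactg
Ifit1 and Ifit3b hold 2 copies each within this window. A match describes these letters and not a bound factor.

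The chemokine genes Cxcl10 and Ccl2 crossed towards CT-26, while the chemokine list as a whole had as many interactions above 0 as below it, 15 and 15 of 30. Cxcl10, which encodes a chemokine that attracts T and NK cells and is itself induced by interferon, was at 0.704, 1.25 and 0.921 CPM in CT-26 cultures and 2.71, 3.41 and 3.27 CPM in Colon 26 cultures. It was at 76.1, 135, 58.2 and 48.2 CPM in CT-26 tumors and 8.47, 29.8, 28.6 and 17.6 CPM in Colon 26 tumors. Both models were far higher as tumors, CT-26 by a log2 fold change of 6.34 and Colon 26 by 2.75. An exon of Cxcl10 overlaps Art3 on the other strand. Ccl2, which attracts monocytes, was at no more than 0.167 CPM in CT-26 cultures and at 0.505 to 0.716 CPM in Colon 26 cultures, and at 64.9 to 173 CPM in CT-26 tumors and 31.9 to 53.9 CPM in Colon 26 tumors.

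Of the crossing genes, Dio2 had the largest value of the smaller of both absolute log2 fold changes, 5.48. This estimate is from cultures, where CT-26 was at the floor, so it depends on the model's prior count and is no bound. Dio2 encodes the deiodinase that activates thyroid hormone and lies at chr12:90724552-90738438 of GRCm38. There an exon overlaps Gm26512 on the other strand. It was at 0.0469, 0.0367 and 0 CPM in CT-26 cultures, at the floor, and at 1.86, 1.34 and 1.07 CPM in Colon 26 cultures, at least 11.3-fold higher when 3 counts per library are set for CT-26. In tumors it was at 25.1, 74.8, 64.2 and 95.9 CPM in CT-26 and at 1.85, 1.71, 0.979 and 1.16 CPM in Colon 26. The Colon 26 tumors thus stayed at the level of the Colon 26 cultures (log2 fold change 0.03, adjusted p = 0.953), while CT-26 went from the lowest of the 4 groups to the highest.

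Rerg, Inmt and Aldh3a1 changed in both models and in opposite directions. Rerg, a Ras-like growth inhibitor gene, was at 0.110 to 0.235 CPM in CT-26 cultures and 5.89 to 13.1 CPM in CT-26 tumors, while Colon 26 had 3.61 to 4.09 CPM in cultures and 0.264 to 0.779 CPM in tumors. Inmt, a methyltransferase gene, was at 0.661 to 0.712 CPM in CT-26 cultures and 2.76 to 17.3 CPM in its tumors, and at 6.32 to 6.43 CPM in Colon 26 cultures and 0.124 to 0.525 CPM in its tumors. Aldh3a1, an aldehyde dehydrogenase gene, was at 6.78 to 7.96 and 16.6 to 35.3 CPM in CT-26 cultures and tumors and at 24.5 to 26.1 and 2.40 to 3.73 CPM in those of Colon 26. Across all 48 genes crossing towards CT-26, 46 were called higher in CT-26 tumors than in CT-26 cultures (background 23.6%), and of these 11 also rose in Colon 26, 13 fell in Colon 26 and 22 were not called there. The choice of genes makes a rise in CT-26 or a fall in Colon 26 likely, so nothing is read from these counts.

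The remaining named genes crossing towards CT-26 have varied roles. Slc14a1, a urea transporter gene, was at 2.64 to 3.33 CPM in CT-26 cultures, 11.5 to 12.3 CPM in Colon 26 cultures, 51.1 to 88.1 CPM in CT-26 tumors and 14.2 to 20.6 CPM in Colon 26 tumors. Col10a1, the collagen X gene, was at 4.12, 4.54, 25.8 and 37.2 CPM in CT-26 tumors and at 3.86, 0.856, 0.753 and 2.15 CPM in Colon 26 tumors, so the 2 lower CT-26 tumors were close to the highest Colon 26 tumor. Mmp3, a matrix-degrading protease gene, was at 37.0 to 121 CPM in CT-26 tumors and 9.75 to 32.8 CPM in Colon 26 tumors, after at most 0.610 and 1.92 CPM in the cultures. Omd, which encodes the matrix proteoglycan osteomodulin, and Ablim1, an actin-binding protein gene, had interactions of -3.21 ± 0.40 and -3.49 ± 0.44.

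2 members of leukocyte marker lists were among them, and both were present in the cultures. Cytip, a leukocyte adaptor gene, was at 14.6 to 16.3 CPM in Colon 26 cultures and 2.53 to 2.97 CPM in CT-26 cultures, and at 26.9 to 69.2 CPM in CT-26 tumors and 14.8 to 22.9 CPM in Colon 26 tumors. Lck, a T cell kinase gene, was at 6.09 to 6.99 CPM in Colon 26 cultures and 2.64 to 3.63 CPM in CT-26 cultures, and its tumor values, 7.37 to 22.9 CPM in CT-26 and 3.38 to 9.25 CPM in Colon 26, overlapped.

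Matrix genes were among those of the opposite direction, lower in Colon 26 cultures and higher in Colon 26 tumors. Postn encodes periostin, a matrix protein of activated fibroblasts, and lies at chr3:54361109-54391037. It was at 0.657, 0.367 and 0.628 CPM in CT-26 cultures and at 0.113, 0.126 and 0.128 CPM in Colon 26 cultures. In tumors it was at 19.4, 22.4, 40.5 and 39.9 CPM in CT-26 and at 139, 117, 111 and 124 CPM in Colon 26. The cultures differed by a log2 fold change of -2.10 ± 0.76 and the tumors by 2.01 ± 0.20, both models being higher as tumors.

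Tnc and Tnn encode tenascins, glycoproteins of remodeled matrix. Tnc was at 1.43 to 1.72 CPM in CT-26 cultures and 0.141 to 0.227 CPM in Colon 26 cultures, and at 105, 150, 136 and 114 CPM in CT-26 tumors and 376, 482, 476 and 376 CPM in Colon 26 tumors. Tnn was at 0.167 to 0.422 CPM in CT-26 cultures, at the floor in Colon 26 cultures, at 1.3 to 5.52 CPM in CT-26 tumors and at 9.44 to 24.8 CPM in Colon 26 tumors. Neither gene overlapped between models in cultures or in tumors. Tnc has an exon that overlaps 8030451A03Rik on the other strand.

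Col14a1, the gene of a fibril-associated collagen, was at 8.66 to 9.24 CPM in CT-26 cultures and 0.102 to 0.353 CPM in Colon 26 cultures. It was at 6.39, 13.0, 10.9 and 18.8 CPM in CT-26 tumors and 50.4, 30.1, 24.6 and 38.1 CPM in Colon 26 tumors. CT-26 held about the same level in culture and tumor (log2 fold change 0.45, adjusted p = 0.208), while Colon 26 moved from the lowest group to the highest. Col23a1, a transmembrane collagen gene, was at 0.536 to 2.55 CPM in CT-26 tumors and 2.95 to 8.17 CPM in Colon 26 tumors, and Adamts2, a procollagen protease gene, at 15.9 to 25 and 56 to 62.2 CPM, both from very low levels in cultures.

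**Figure D4:**
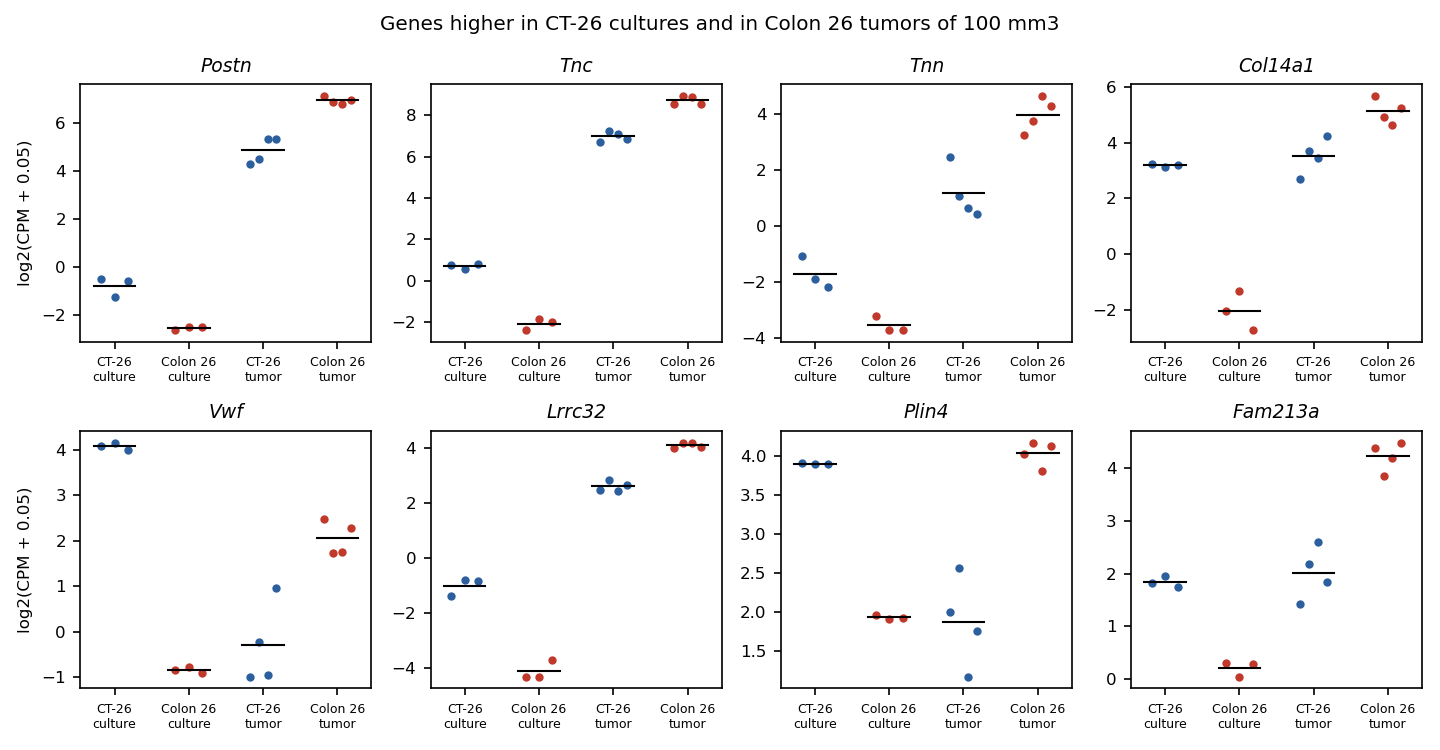
Each panel shows 1 gene as log2(CPM + 0.05) in the 3 cultures and 4 tumors of 100 mm3 of CT-26 (blue) and Colon 26 (red), with a line at each group's mean. In all 8 genes the CT-26 cultures lie above the Colon 26 cultures and the Colon 26 tumors above the CT-26 tumors, and for Postn, Tnc, Tnn and Lrrc32 both tumor groups lie above both culture groups.

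Vwf, Plin4 and Fam213a showed another pattern, in which CT-26 cultures and Colon 26 tumors were the 2 highest groups for Vwf and Plin4. Vwf encodes von Willebrand factor, a clotting protein of endothelial cells. It was at 17.1, 17.8 and 16 CPM in CT-26 cultures and 0.507, 0.530 and 0.486 CPM in Colon 26 cultures, and at 0.453, 0.801, 0.464 and 1.91 CPM in CT-26 tumors and 5.52, 3.26, 3.31 and 4.84 CPM in Colon 26 tumors. The summed CPM of the 11 endothelial markers, which include Vwf, overlapped between the tumors of both models, at 101 to 304 in CT-26 and 182 to 243 in Colon 26. Plin4, a lipid droplet gene, was at 14.7 to 14.9 and 3.71 to 3.83 CPM in CT-26 and Colon 26 cultures and at 2.20 to 5.88 and 13.9 to 17.9 CPM in their tumors, and an exon of it overlaps Hdgfl2 on the other strand. Fam213a, which encodes a peroxiredoxin-like protein, was at 3.31 to 3.82 and 0.984 to 1.18 CPM in cultures and at 2.64 to 6.03 and 14.4 to 22.2 CPM in tumors.

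Serpinb2, Serpina3n and Lrrc32 also met the rule for crossing towards Colon 26. Serpinb2, which encodes an inhibitor of plasminogen activators, was at 2.34 to 2.79 CPM in CT-26 cultures, at least 32.5-fold above Colon 26 cultures when 3 counts per library are set for the latter. In tumors it was at 7.34, 1.5, 4.29 and 3.79 CPM in CT-26 and 17.5, 7.43, 17.2 and 10.8 CPM in Colon 26. Exons of Serpinb2 overlap Serpinb10 on the same strand. Serpina3n was at 3.21 to 5.42 CPM in CT-26 tumors and 10.8 to 21.1 CPM in Colon 26 tumors with both cultures at the floor, so that its sign in culture rests on hardly any counts, and its near-identical family members make its counts uncertain. Lrrc32, which encodes the receptor that holds latent TGF-beta on the cell surface, was at 0.328 to 0.514 CPM in CT-26 cultures (at least 5.67-fold above Colon 26), 5.38 to 7.08 CPM in CT-26 tumors and 15.9 to 18.1 CPM in Colon 26 tumors.

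Genes of cell guidance and adhesion crossed towards Colon 26 at low levels. Sema6c, a semaphorin gene, was at 1.63 to 1.92 CPM in CT-26 cultures and 0.705 to 0.972 CPM in Colon 26 cultures, and at 0.371, 0.401, 0.348 and 1.13 CPM in CT-26 tumors and 1.78, 2.07, 1.47 and 1.66 CPM in Colon 26 tumors. Robo2, a Slit receptor gene, was at 0.586 to 0.661 and 0.126 to 0.254 CPM in the cultures and at 0.124 to 0.271 and 0.227 to 1.24 CPM in the tumors, where the models overlapped. Robo1, Epha4 and Ncam1, which encode another Slit receptor, an ephrin receptor and a neural adhesion molecule, were at the floor in both cultures. In tumors Ncam1 was at 1.43 to 3.46 CPM in CT-26 and 5.80 to 8.37 CPM in Colon 26, while Robo1 did not exceed 1.98 CPM nor Epha4 0.662 CPM in any tumor. Cdh11, a mesenchymal cadherin gene, was at 3.72 to 9.82 CPM in CT-26 tumors and 9.94 to 16.8 CPM in Colon 26 tumors.

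The last named genes of this direction are Nkd2, Pi16 and Hoxc9. Nkd2, a Wnt antagonist gene, was at 0.10 to 0.348 CPM in CT-26 tumors and 1.3 to 1.69 CPM in Colon 26 tumors, with both cultures at the floor. Pi16, a gene of fibroblasts, was at 0.907, 6.68, 1.55 and 2.22 CPM in CT-26 tumors and 20.9, 3.81, 2.90 and 10.6 CPM in Colon 26 tumors, which overlapped. Hoxc9, a homeobox gene, did not exceed 0.714 CPM in any tumor of 100 mm3. Of the 60 genes crossing towards Colon 26, 51 were called higher in Colon 26 tumors than in Colon 26 cultures (background 20.1%), of which 37 also rose in CT-26, 4 fell in CT-26 and 10 were not called there, and the choice of genes again makes this likely.

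Matrix and guidance genes as whole lists did not move one way. Of 31 collagen genes tested, the interaction was called for 9 towards Colon 26 and 5 towards CT-26, and of 47 matrix glycoprotein and proteoglycan genes for 11 and 15, beside 8.29% and 9.31% of all genes. Col6a3, a chain of the microfibril collagen VI, was lower in Colon 26 cultures (means 0.401 against 2.54 CPM) and near equal in tumors (150 against 110 CPM), with an interaction of 3.08 ± 0.51 (adjusted p = 0.000241). Fbn1, the fibrillin gene, had means of 2.56 and 42.5 CPM in the cultures of CT-26 and Colon 26 and of 56.7 and 139 CPM in the tumors, with an interaction of -2.75 ± 0.18 (adjusted p = 6.14e-08). Dcn, the decorin gene, went from -5.25 in cultures to -1.18 in tumors. Of 60 axon guidance genes, 11 were called towards Colon 26 and 13 towards CT-26, and Slit3, a repellent ligand gene, had means of 29.9 and 224 CPM in cultures and 190 and 169 CPM in tumors.

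Genes of the cell cycle were higher in Colon 26 cultures, and in tumors of 100 mm3 their model difference was below the fold threshold. Of 32 genes, 19 were called higher in Colon 26 cultures and 1 in CT-26 cultures (10.2% and 12% of all genes), while 0 were called in either direction in tumors. Without a minimum fold change, 24 of 32 passed the adjusted p as higher in CT-26 tumors and 2 as higher in Colon 26 tumors. Of all 16501 genes, 10061 passed in tumors in this setting, in either direction. The median log2 fold change over the list was -0.32 in tumors. The interaction was called towards CT-26 for 22 of 32 (68.8%, beside 9.31% of all genes) and towards Colon 26 for 0, with a median of -1.47. Ccna2, the cyclin A2 gene, had means of 50.3 CPM in CT-26 cultures, 230 CPM in Colon 26 cultures, 258 CPM in CT-26 tumors and 271 CPM in Colon 26 tumors, and an interaction of -2.12 ± 0.07 (adjusted p = 3.48e-10). Mki67, the proliferation marker, had means of 151, 362, 500 and 411 CPM in the same order. Rrm2, a subunit of ribonucleotide reductase, had means of 58.3, 195, 160 and 101 CPM and an interaction of -2.41 ± 0.13 (adjusted p = 1.28e-08). The estimates had opposite signs in both tissues for 24 of the 32 genes, beside 5659 of the 16501 genes tested. An interaction below 0 was found for 31 of the 32, beside 8490 of the genes tested. The density of the cultures at harvest was not stated in the sources used here.

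Other lists written for this comparison are given by their counts, to be read beside 8.29% of all genes called towards Colon 26 and 9.31% called towards CT-26. Towards Colon 26 and towards CT-26 respectively, the interaction was called for 0 and 7 of 16 genes of MHC class I and antigen processing, 1 and 0 of 9 of MHC class II, 2 and 7 of 30 chemokines, and 6 and 14 of 45 growth factor and cytokine ligands. It was called for 5 and 7 of 28 Wnt ligands and modulators, 10 and 5 of 34 matrix proteases and inhibitors, 3 and 1 of 19 epithelial and keratin genes, and 4 and 1 of 14 mesenchymal factors. For genes of metabolism and stress the counts were 5 and 2 of 30 for hypoxia and glycolysis, 3 and 0 of 24 for cholesterol synthesis, 0 and 12 of 32 for amino-acid and unfolded protein stress, 3 and 3 of 19 for Nrf2 antioxidant genes, and 0 and 3 of 19 for p53 targets. They were 6 and 6 of 21 for complement, 7 and 0 of 19 for prostaglandin genes, 1 and 3 of 30 for Hox genes, and 5 and 10 of 34 for homeobox, Sox and Gata factors. Among these lists crossing genes were found for chemokines (Cxcl10 and Ccl2), Wnt modulators (Nkd2), proteases and inhibitors (Adamts2, Serpinb2 and Mmp3), mesenchymal factors (Cdh11 and Ncam1) and Hox genes (Hoxc9).

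Among called genes with a mean of at least 5 CPM in 1 group, and leaving out clone names, the 3 largest interactions of each sign belonged to Dio2 and to 5 genes without a count in the cultures of 1 line. Arap2, a GTPase-activating protein gene, was at 95.4 to 97.6 CPM in CT-26 cultures and at 0 in all 3 Colon 26 cultures, at least 1218-fold lower when 3 counts per library are set, but at 1.39 to 2.28 CPM in Colon 26 tumors and 17.4 to 20.3 CPM in CT-26 tumors. Manea, a mannosidase gene, was likewise at 47.7 to 50.8 CPM and at 0 in cultures and at 20.1 to 23.6 and 3.93 to 4.89 CPM in tumors. Ints6l was at 23 to 24.1 CPM and at 0 in cultures and at 16.6 to 22.8 and 6.90 to 9.03 CPM in tumors. Zfp709 and Smpdl3b were at 0 in CT-26 cultures and at 5.30 to 6.52 and 9.86 to 10.6 CPM in Colon 26 cultures, and were at 0.890 to 1.60 and 5.08 to 19.9 CPM in CT-26 tumors. None of these 5 genes crossed, since the tumors kept the sign of the cultures.

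The 16 tumors of 400 and 800 mm3, which took no part in choosing the crossing genes, were fitted by size. They bear on the sign in tumors and not on the sign in cultures. At 400 mm3, 93 of the 108 genes passed the filter on low counts and 88 of them had the sign of the tumors of 100 mm3. Of the genes crossing towards CT-26, 30 of 43 were called higher in CT-26 (7.79% of all genes), and of those crossing towards Colon 26, 25 of 50 were called higher in Colon 26 (6.48%), with 0 called the other way. At 800 mm3, 26 of 43 were called higher in CT-26 (7.62%) and 28 of 50 higher in Colon 26 (6.50%). There 2 genes crossing towards Colon 26, Col23a1 and Cadm2, were called the other way, and 88 of 93 again had the earlier sign. In all, 39 genes were called with the same sign at both sizes, 22 towards CT-26 and 17 towards Colon 26.

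Dio2, Rerg and Aldh3a1 were called in the larger tumors as well. Dio2 was at 53.5, 46.7, 50.4 and 38.1 CPM in CT-26 tumors of 400 mm3 and at 0.670, 3.72, 0.515 and 0.720 CPM in Colon 26 tumors, a log2 fold change of -5.10 ± 0.57 (adjusted p = 0.000168, edgeR), and at -5.15 ± 0.18 at 800 mm3 (adjusted p = 3.93e-08). Rerg differed by -3.64 ± 0.47 and -4.07 ± 0.23 (adjusted p = 0.000364 and 6.69e-07), and Aldh3a1 by -3.57 ± 0.59 and -4.21 ± 0.50 (adjusted p = 0.00129 and 7.1e-05).

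All 6 crossing genes of the interferon list were called at 400 mm3, and Cmpk2, Ifit1 and Rtp4 also at 800 mm3. Cmpk2 was at 37.4, 61.1, 31.9 and 37.8 CPM in CT-26 tumors of 400 mm3 and 7.37, 8.68, 7.76 and 9.14 CPM in those of Colon 26, and at 800 mm3 at 40.7, 27.6, 16.5 and 14.2 CPM against 4.50, 9.77, 11.6 and 8.50 CPM. The log2 fold changes were -2.35 ± 0.20 (adjusted p = 4.23e-05) and -1.52 ± 0.36 (adjusted p = 0.00504). Rsad2 differed by -1.83 ± 0.42 at 400 mm3 (adjusted p = 0.00703) and by -0.76 ± 0.36 at 800 mm3 (adjusted p = 0.104), where the models overlapped, and Mx2 by -1.74 ± 0.23 (adjusted p = 0.000404) and -0.77 ± 0.47 (adjusted p = 0.193). Cxcl10 was not called at either size (-0.69 ± 0.33, adjusted p = 0.118, and -0.52 ± 0.35, adjusted p = 0.25). Of the 41 genes of the list, 40 were called higher in CT-26 at 400 mm3 and 26 at 800 mm3. The change of these differences with size was not tested here.

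Of the matrix genes, Postn and Col14a1 were called at both sizes, and Tnc and Tnn at 400 mm3 only. The interaction taken with the larger tumors in place of those of 100 mm3 was no longer called for Postn, Col23a1 and Adamts2 at 400 mm3 (adjusted p = 0.153, 0.125 and 0.22, edgeR), nor for Tnn and Col23a1 at 800 mm3 (adjusted p = 0.189 and 0.449). Postn was at 12.1, 58.0, 3.51 and 60.2 CPM in CT-26 tumors of 400 mm3 against 122, 105, 138 and 107 CPM in Colon 26 tumors, a log2 fold change of 1.82 ± 0.71 (adjusted p = 0.065), and differed by 1.90 ± 0.26 at 800 mm3 (adjusted p = 0.000195). Tnc differed by 1.60 ± 0.32 at 400 mm3 (adjusted p = 0.00375) and by 0.46 ± 0.27 at 800 mm3 (adjusted p = 0.175). Tnn spread widely at 400 mm3, from 4.05 to 46.6 CPM in Colon 26 tumors and 1.48 to 7.69 CPM in CT-26 tumors, and at 800 mm3 its estimate was -0.67 ± 0.51 (adjusted p = 0.298). Lrrc32, Ncam1, Fam213a and Sema6c were called higher in Colon 26 at both sizes, with log2 fold changes from 1.65 to 2.96.

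**Figure D5:**
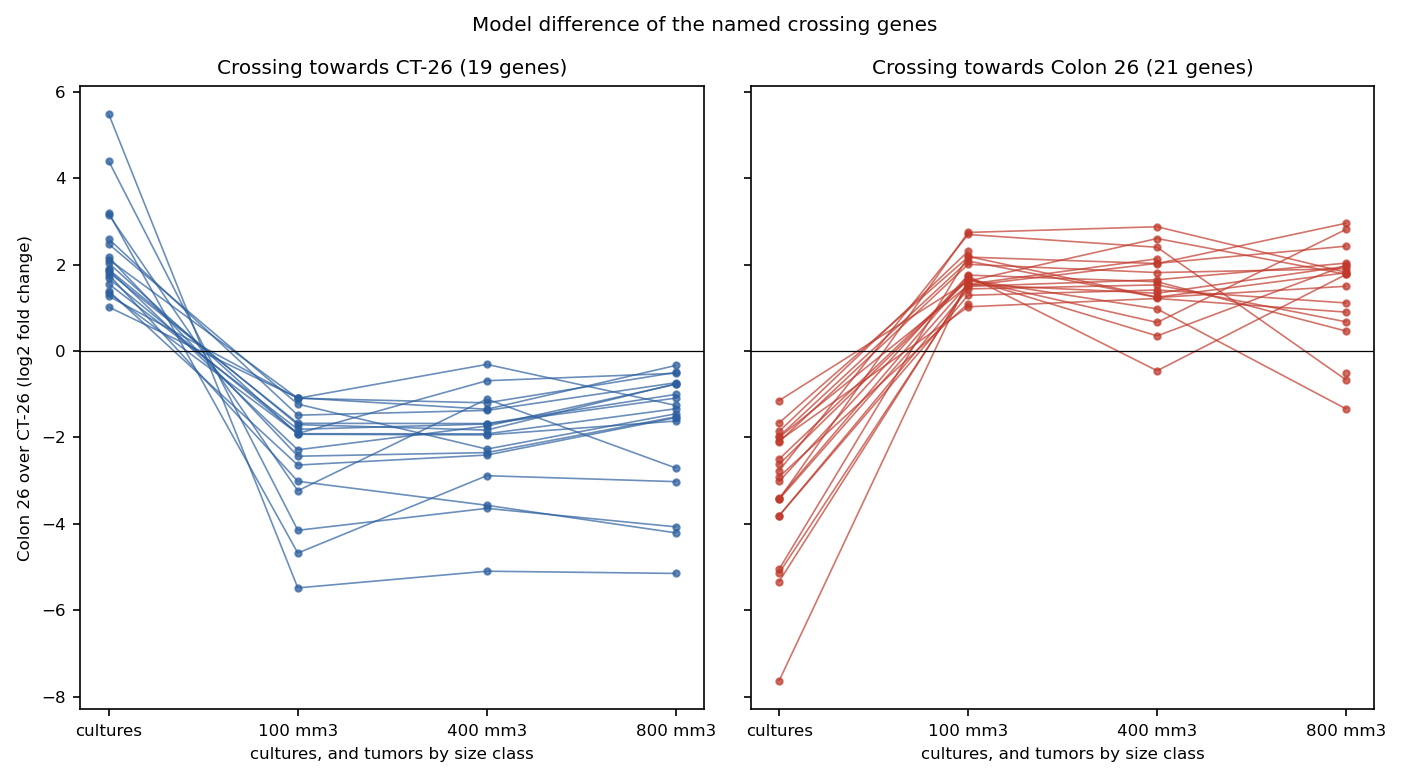
Each line follows 1 named crossing gene through its log2 fold change of Colon 26 over CT-26 in cultures and in tumors of 100, 400 and 800 mm3, with 19 genes crossing towards CT-26 (blue) and 21 towards Colon 26 (red), and gaps where a gene was not tested. All 19 blue genes stay below 0 in every tumor class, while Pi16 at 400 mm3 and Tnn, Robo2 and Col23a1 at 800 mm3 fall below 0 among the red ones.

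Among 13 markers of macrophages the interaction was called towards Colon 26 for 7 and towards CT-26 for 0, beside 8.29% and 9.31% of all genes. Higher in CT-26 cultures were 5 of the 13, beside 12% of all genes, and 1 was called higher in Colon 26 tumors, beside 6.94%. Cd68, a lysosomal protein gene, had means of 61.6 and 3.95 CPM in CT-26 and Colon 26 cultures and of 94.4 and 111 CPM in tumors, with an interaction of 4.19 ± 0.28 (adjusted p = 8.38e-08, edgeR). C1qa, a complement gene, had means of 0.492 and 0.0263 CPM in cultures and 371 and 382 CPM in tumors. Csf1r likewise had means of 0.451 and 0.0538 CPM in cultures and 216 and 338 CPM in tumors. Outside Cd68, Mertk and Lyz2, no marker of this list had a mean above 0.565 CPM in the cultures of either line. For those markers the interaction rests on low counts in cultures, and the source of these counts was not tested.

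The makeup of the tumors of 100 mm3 differed between the models in some marker sums. Besides the NK sum, the 6 mast cell markers summed to 61.0 to 172 CPM in CT-26 tumors and 11.1 to 17.8 CPM in Colon 26 tumors, the 14 fibroblast and pericyte markers to 2101 to 2652 and 2652 to 2993 CPM, and the 5 Schwann and nerve markers to 4.78 to 7.71 and 11.3 to 14.8 CPM. In these 4 lists the models did not overlap, and the two-sided exact permutation test gave p = 0.0286, the smallest value that 4 tumors against 4 allow, and 0.107 after adjustment over the 15 lists. For fibroblasts the nearest sums were 2652.4 CPM in a CT-26 tumor and 2652.5 CPM in a Colon 26 tumor, so the models barely missed overlapping. The fibroblast list holds the crossing genes Postn and Pi16, and without them its sums overlapped, at 2080 to 2610 CPM in CT-26 tumors and 2538 to 2834 CPM in Colon 26 tumors. Most of that sum is Col1a2, a collagen I gene at means of 1114 and 1164 CPM in the cultures, and Dcn and Dpt had higher means in CT-26 tumors. The lists overlapped between models for leukocytes, T cells, B and plasma cells, macrophages, dendritic cells, neutrophils, endothelium, skeletal muscle, adipocytes, skin and erythroid cells. Skeletal muscle markers ranged from 3.42 to 693 CPM in CT-26 tumors and from 173 to 1693 CPM in Colon 26 tumors. The part of the makeup in the crossing genes was not tested.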

How the data were processed

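Libraries were made from poly-A RNA and read in pairs on a HiSeq X. With Array Studio and the Ensembl release 78 annotation the authors counted reads per gene, and they deposited estimated counts, not normalized, and FPKM, scaled by library size and gene length. The aligner, genome build and strand setting are not given in the sources used here. The submitters' processing notes name DESeq2 1.24.0.

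Estimated counts were rounded to whole numbers, since 22.6% of non-zero values were not whole (tolerance 1e-06). edgeR 4.0.16 in R 4.3.3 fitted 4 groups with TMM normalization, filterByExpr, quasi-likelihood tests and Benjamini-Hochberg adjustment over 16501 of 53431 genes. Standard errors were taken from the F statistic. CPM used TMM-scaled library sizes. Thresholds were the study's. Tumors of 400 and 800 mm3 were fitted alone. Alternatives were DESeq2 1.42.0, limma 3.58.1 on log2(FPKM + 1) and log2(FPKM + 0.1), and others given at the end. The pseudocount understates changes of low genes. No column of sample values was left unused (0). The design foresaw raw counts.

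Named genes were, among crossing genes with a mean of at least 5 CPM in 1 group and models apart in both tissues, the 12 per direction with the largest smaller fold change, plus crossing genes of any list, plus the 3 largest interactions from each end, without clone names. Atp13a4, Meg3, Ifit3b, Akr1c14 and Cadm2 and the list genes that did not cross were named after their values were seen. Members and gene lists were chosen with earlier results of these data known.

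Symbols were found for 52207 identifiers (97.7%), and positions and overlaps come from the GENCODE annotation of GRCm38. Replicates of a group differed by 2.91 to 73.9 times the counting variance in 18 pairs (2.91 to 4.53 among cultures). Each library was counted as its own sample, although such ratios cannot show that the cultures were independent. On simulated counts with 16021 genes tested, the interaction was called for 98 of 100 genes changed by a log2 value of 2. It was called for 99 of 100 changed by 3, and for 9 unchanged genes. The changed genes were drawn above a minimum mean level, with the same base level in all groups. This recovery counts interactions and does not speak for crossing, nor for genes at the floor in a culture group. Floors cover counting error only.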

Additional observations from a re-analysis of the deposited data

Results flagged for a closer look

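The interaction itself tests whether the model difference was unequal in cultures and tumors, and it singled out all 45 named genes, which were chosen for it, so the values are a description. On the log2 scale the interaction of genes crossing towards Colon 26 was Nkd2 6.17, Tnn 5.47, Vwf 7.24, Postn 4.11, Plin4 4.06, Robo2 4.17 and Tnc 4.78. Further values of this direction were Pi16 5.14, Serpina3n 4.17, Fam213a 3.84, Serpinb2 9.29, Col23a1 4.27, Epha4 4.98 and Col14a1 6.88. The last of them had interactions of Ncam1 3.51, Lrrc32 6.63, Adamts2 5.25, Robo1 5.10, Sema6c 2.76, Hoxc9 4.01 and Cdh11 3.10. For genes crossing towards CT-26 it was Dio2 -10.96, Rerg -8.54, Inmt -7.87, Col10a1 -6.39, Cmpk2 -4.60, Slc14a1 -3.96 and Mx2 -4.16. Further values towards CT-26 were Aldh3a1 -4.79, Rsad2 -3.59, Cxcl10 -3.59, Ablim1 -3.49, Mmp3 -3.36, Ccl2 -4.08 and Ifit1 -4.03. The remaining ones were Rtp4 -3.26, Cytip -3.70, Omd -3.21, Dhx58 -2.36 and Lck -2.10. Genes that did not cross had interactions of Arap2 11.11, Manea 11.22, Ints6l 11.10, Zfp709 -8.56 and Smpdl3b -10.24. These 5 values, and those of genes at the floor in a culture group, depend on the prior count of the model and are no bounds.

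For 5 genes a CT-26 tumor of 100 mm3 lay apart from the other tumors of its group by Dixon's test, among 90 groups of 4 tumors tested, and chance gives about 1 in 20. Arap2 was at 20.3 CPM in the third tumor, with the nearest at 17.8, and Sema6c at 1.13 CPM in the fourth, with the nearest at 0.401. Smpdl3b and Omd were at 19.9 and 38.9 CPM in the second tumor, with the nearest at 6.43 and 21.8. Serpina3n was at 3.21 CPM in the first tumor, with the nearest at 5.14. The cause was not tested.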

How the results depend on the processing

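Counts of calls stayed within 1.5 times the reported ones under DESeq2, RLE factors, library size only, no filter on low counts, all 30 libraries in one fit, an adjusted p of at most 0.05, and thinning to the smallest library, with exceptions as follows. With at least 10 counts in every library, the interaction was called for 1487 genes (645 towards Colon 26, 842 towards CT-26), cultures for 1813 and tumors for 938, with 30 crossing genes (7 and 23) and 932 genes of opposite estimated sign, over 11894 genes tested. On log2(FPKM + 1) these numbers were 1255 (523 and 732), 1515, 871, 11 (4 and 7) and 723. On log2(FPKM + 0.1) only the crossing genes moved, to 42 (15 and 27). Without a minimum fold change they were 8421 (3739 and 4682), 10755, 10061, 1643 (693 and 950) and 3981. Asking for more than 3 counts in every culture of 1 line, an alternative chosen after seeing the data, left 81 crossing genes, 34 towards Colon 26. DESeq2 gave 112 crossing genes, 96 of them shared with the reported 108, and RLE factors 106, of which 104 were shared. The median interaction of all genes was 0.14 with DESeq2, over 29716 genes, against -0.02.

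Tumors of 400 or 800 mm3 in place of 100 mm3 gave 93 and 110 crossing genes, of which 51 and 51 were among the 108. These fits used the same cultures again. Leaving out each library in turn gave 2761 to 2985 genes in the interaction (1251 to 1493 towards Colon 26, 1475 to 1551 towards CT-26), 3618 to 3693 in cultures, 2318 to 2597 in tumors, 96 to 125 crossing (54 to 79 and 39 to 53), and 1577 to 1749 of opposite sign. Leaving out each larger tumor in turn gave 51 to 57 crossing genes called with the same sign at 400 mm3 and 51 to 57 at 800 mm3. The interaction of the 45 named genes kept its sign under every alternative, while the tumor difference of Pi16 at 400 mm3 and of Tnn, Robo2 and Col23a1 at 800 mm3 had the other sign. The interaction was no longer called in 26 of 553 combinations of gene and setting, 9 of them with larger tumors (Postn, Robo2, Serpina3n, Col23a1, Adamts2 and Cdh11 at 400 mm3, Tnn, Serpina3n and Col23a1 at 800 mm3), and in 3 of 630 that left out 1 library, which were Hoxc9 and Robo1 without 1 CT-26 culture. The cause was not tested. No paired analysis was possible because the labels carry no replicate numbers.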
